A study of Mus musculus with 12 samples.

Results

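This account covers 10 genes that coat the lipid droplet, break down its fat or build triglyceride, in RNA from sorted endothelial cells of mouse mesentery and epididymal fat. The genes were taken by symbol from the deposited table and are Plin1, Plin4, Cidec and Cidea (droplet proteins), Pnpla2, Lipe and Mgll (lipases), and Agpat2, Dgat1 and Dgat2 (triglyceride synthesis). They are 10 of the 27825 genes in that table, and each was found once. The study compared male ROSA26-eYFP+/+ Cdh5-CreERT2+ mice, in which a tamoxifen-activated Cre driven by the endothelial Cdh5 promoter switches on a yellow fluorescent reporter, fed 2 kinds of food. All mice ate tamoxifen food for 2 weeks from 6 weeks of age and then, from 8 weeks, either chow of 5.8% fat or food of 60% fat (HFD, high fat diet) for 12 to 13 weeks. Fluorescent cells were sorted from mesentery or epididymal fat digested with actinomycin D present, and tissue from 6 mice was pooled in each library. Each of the 4 groups (mesentery on chow, mesentery on HFD, epididymal fat on chow, epididymal fat on HFD) had 3 libraries, lettered A, B and C. The protocol speaks of 2 independent replicates, so the p-values below measure the spread between libraries and part of that spread may be technical.

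Fat cells and, in smaller amounts, many other cells store triglyceride in droplets bounded by a single layer of phospholipid. Perilipins such as Plin1 cover the droplet and hold lipases back in the fed state, while CIDE proteins such as Cidec let droplets fuse and grow. Triglyceride is cut stepwise by Pnpla2 (adipose triglyceride lipase), Lipe (hormone-sensitive lipase) and Mgll (monoacylglycerol lipase), and it is rebuilt by acyltransferases, of which Agpat2 makes phosphatidic acid and Dgat1 and Dgat2 add the last fatty acid. Plin1, Cidec and Lipe are known mainly from adipocytes. Endothelial cells are known to take up fatty acids, form small droplets and use Pnpla2 to clear them.

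Library depth ran from 8348897 to 25397963 reads, and 3 reads equalled 2.12 to 4.22 normalized counts, the unit used below (reads divided by a factor for each library). Endothelial markers were present throughout: 12 of them summed to 132092 to 200171 in mesentery on chow, 126714 to 148382 in mesentery on HFD, 89450 to 105727 in epididymal fat on chow and 48278 to 92652 in epididymal fat on HFD. Genes of other cell types were present as well. The sum of 18 adipocyte markers was 13756 to 17605, 19108 to 39033, 163437 to 227511 and 15000 to 68700 in the same order of groups, and no adipocyte marker was at 0 in all 3 libraries of a group. The highest of these were Car3, Cfd and Sncg, and Adipoq reached 7465 in epididymal fat on chow. The sum of 16 macrophage markers, led by Lyz2, Gpnmb and Cd9, was 7688 to 14328, 12654 to 39859, 11479 to 91680 and 162263 to 394163. In mesentery on chow (libraries A, B and C) Cd9 had 4465, 5370 and 5970 and Lyz2 1004, 1210 and 5043. Adgre1 reached 33.0 and Csf1r 23.9 there. Sums of 10 pancreatic acinar genes were 25475 to 175482 in mesentery and 9.56 to 264 in epididymal fat, and 6 red blood cell genes did the opposite, with 218 to 528 and 42179 to 59420. In bulk RNA, fewer cells of a type and less RNA per cell cannot be told apart. Library names carry numbers 50 to 53 or 87 and 88, and 1 library of each group is numbered 87 or 88 (C on chow, A on HFD), so values from numbers 50 to 53 alone are given where they change the call of a gene named below.

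Promoters of 4 of the members that follow are printed first, because Plin1 and Cidec of the droplet coat and Pnpla2 and Agpat2 of the lipase and synthesis steps differ in the motifs found there. Each line holds the 250 bases before a RefSeq transcription start (GRCm38.p6), 5′ to 3′ on the gene's own strand. Capitals mark the C/EBP-type motif TTGCNNAA in Plin1 and Cidec and the GC box GGGCGG in Pnpla2 and Agpat2, both searched on both strands.
Plin1, chr7:79732777-79733026, minus strand: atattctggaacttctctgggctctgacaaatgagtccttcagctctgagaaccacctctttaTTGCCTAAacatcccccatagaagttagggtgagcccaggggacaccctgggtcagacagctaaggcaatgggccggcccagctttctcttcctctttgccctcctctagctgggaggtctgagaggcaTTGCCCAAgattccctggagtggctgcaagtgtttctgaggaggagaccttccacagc
Cidec, chr6:113434765-113435014, minus strand: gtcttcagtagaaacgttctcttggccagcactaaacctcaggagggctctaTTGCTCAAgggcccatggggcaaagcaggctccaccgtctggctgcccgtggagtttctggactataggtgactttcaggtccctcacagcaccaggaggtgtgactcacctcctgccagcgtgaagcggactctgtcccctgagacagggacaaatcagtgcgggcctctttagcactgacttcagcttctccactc
Pnpla2, chr7:141454938-141455187, plus strand: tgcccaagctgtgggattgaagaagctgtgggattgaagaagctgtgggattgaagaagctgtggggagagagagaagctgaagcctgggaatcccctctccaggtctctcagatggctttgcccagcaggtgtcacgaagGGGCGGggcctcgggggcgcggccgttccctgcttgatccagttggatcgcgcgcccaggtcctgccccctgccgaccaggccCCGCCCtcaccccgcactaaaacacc
Agpat2, chr2:26604418-26604667, minus strand: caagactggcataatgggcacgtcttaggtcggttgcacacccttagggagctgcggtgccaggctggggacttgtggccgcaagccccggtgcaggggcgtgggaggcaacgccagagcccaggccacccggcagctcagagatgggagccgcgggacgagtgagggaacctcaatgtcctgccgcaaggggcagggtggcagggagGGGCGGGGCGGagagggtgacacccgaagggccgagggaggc
Counted back from the start, the Plin1 matches to TTGCNNAA began at positions -187 and -58, and the Cidec match at -198. Cidec has another window, chr6:113435761-113436010, in which TTGCNNAA had no match. The motif also had no match in the window of Plin4, a further droplet gene, or in those of Pnpla2, Agpat2, Lipe and Mgll. The Pnpla2 GC boxes began at -109 and -26, and those of Agpat2, which share a base, at -42 and -37. RefSeq windows were used for 7 of the 10 members, 10 windows in all. A GC box was present in Agpat2, Pnpla2, 1 of 2 Lipe windows (6 matches) and 1 of 2 Mgll windows, and no match was found in the windows of Plin1, Plin4 and Cidec. TTGCNNAA occurred in 9.56% and GGGCGG in 32.7% of 32851 mouse promoter windows of this length. A DR1 motif (a direct repeat of AGGTCA with 1 base between), present in 0.0335% of all windows, and TATAAA, present in 12.4%, had no match in the 10 windows. CCAAT (33.8% of all windows) matched once, in Plin4, and CACGTG (6.02%) in Lipe and Mgll. These matches describe letters and show no binding.

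Epididymal fat on chow had the highest levels of 6 members, and the other 4 were not called between tissues on chow. The 6 were Plin1, Plin4 and Cidec of the droplet coat, the lipase Pnpla2, and Agpat2 and Dgat2 of triglyceride synthesis. All 10 members had a mean of at least 10 normalized counts and were tested. In limma's test across 22238 genes, with Benjamini-Hochberg adjustment and a threshold of 0.05, 6 of 10 members were higher in the epididymal than in the mesenteric chow libraries, beside 7.32% of all genes tested, and 0 of 10 were lower, beside 5.47%, also at an unadjusted p under 0.05 and with edgeR or DESeq2. The median log2 difference was 1.67 over the 10 members and -0.08 over all genes. edgeR and DESeq2 on the recovered reads also called 6, beside 5.16% and 9.67% of all genes in that direction, and each of the 6 passed in all 22 alternative settings. Adipocyte markers moved with these genes: 17 of 18 were called higher in the same comparison, with a median log2 difference of 3.51, as were 8 of 10 smooth muscle and pericyte markers, 7 of 8 fibroblast markers and all 5 tested red blood cell genes, while 7 of 12 endothelial markers were called lower and 1 higher. Their part in the members' difference was not tested.

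**Figure D1:**
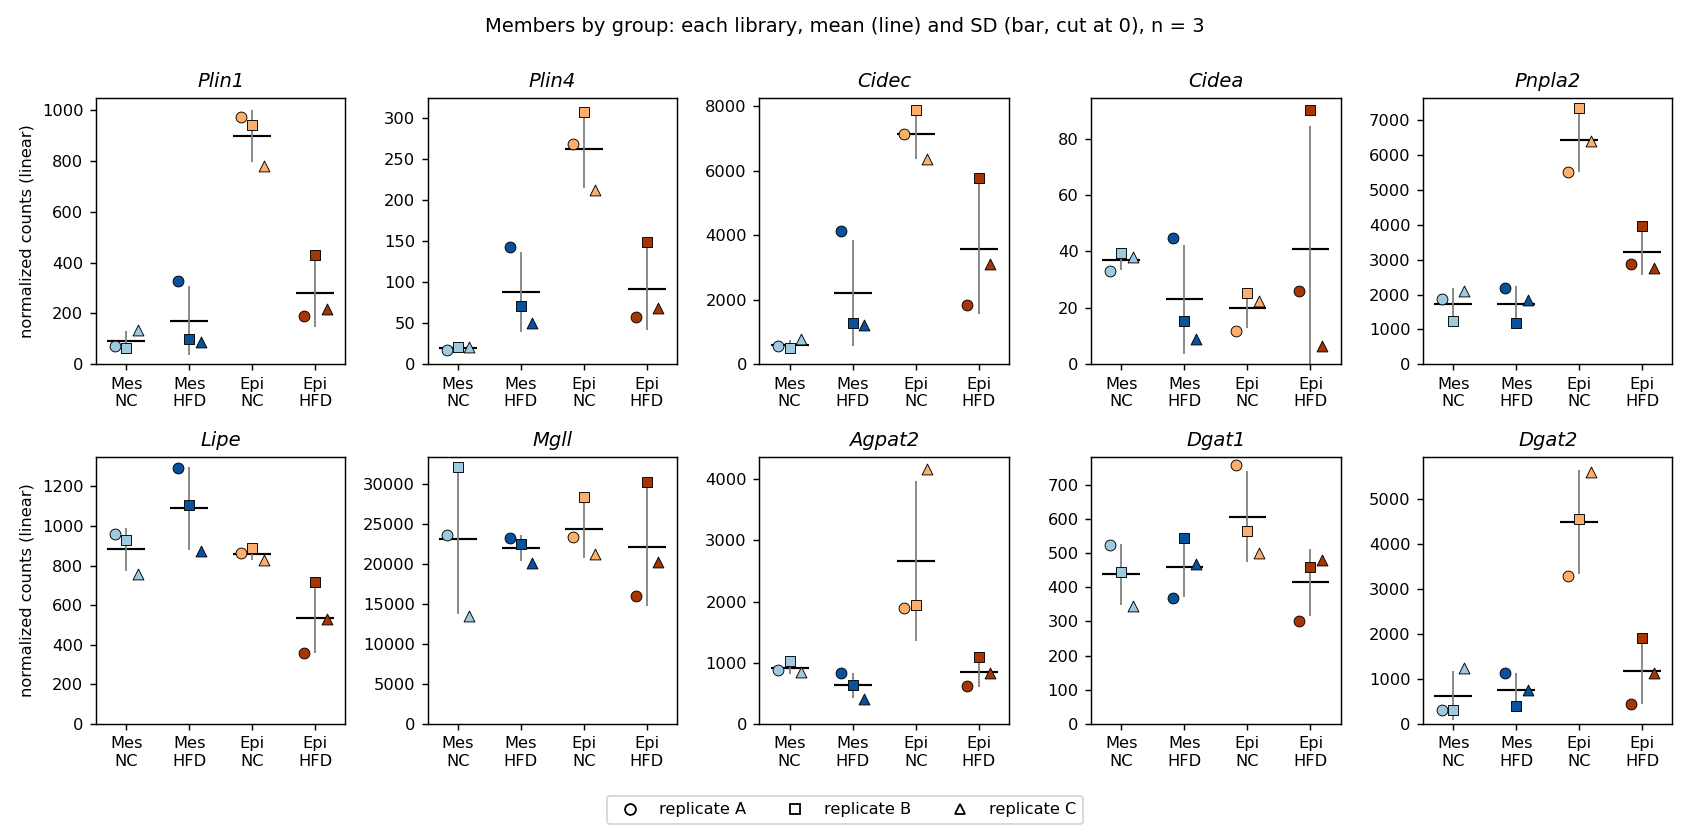
Normalized counts (linear axes, each starting at 0) of the 10 members in every library of the 4 groups (Mes, mesentery; Epi, epididymal fat; NC, chow; HFD, high fat diet), with the mean as a line and the SD as a bar, n = 3. Plin1, Plin4, Cidec, Pnpla2, Agpat2 and Dgat2 stand highest in the 3 libraries of epididymal fat on chow, while Mgll overlaps across all groups.

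Plin4, Cidec and Plin1 of the droplet coat had the largest log2 tissue differences on chow among the members, with Dgat2 close to Plin1. Plin1, the perilipin that gates lipolysis in adipocytes, had 72.9, 65.4 and 135 normalized counts in mesentery on chow (libraries A, B and C) and 974, 942 and 782 in epididymal fat on chow. On HFD it had 327, 98.4 and 86.9 in mesentery and 189, 431 and 217 in epididymal fat. The 3 epididymal chow libraries stood above the other 9, and the mesenteric HFD group was spread by library A. The tissue difference on chow was 3.36 on the log2 scale (95% confidence interval 2.34 to 4.37, adjusted p = 0.000482), a 9.87-fold ratio of means.

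Plin4, a perilipin of small and new droplets, had lower levels than Plin1 and Cidec in every library. It had 17.1, 20.6 and 21.1 normalized counts in mesentery on chow, 143, 70.7 and 50.4 in mesentery on HFD, 269, 307 and 212 in epididymal fat on chow, and 57.3, 149 and 67.9 in epididymal fat on HFD. Mesentery on chow lay below every other library, epididymal fat on chow lay above every other library, and both HFD groups lay between them and overlapped. The tissue difference was 3.67 on the log2 scale on chow (SE 0.465, adjusted p = 0.00023) and 0.06 on HFD (interval -0.94 to 1.06).

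Cidec, which promotes droplet fusion, was the most abundant coat gene. Its normalized counts were 550, 492 and 780 in mesentery on chow, 4121, 1274 and 1229 in mesentery on HFD, 7125, 7891 and 6352 in epididymal fat on chow, and 1847, 5787 and 3109 in epididymal fat on HFD. The groups lay as for Plin4, with mesentery on chow below and epididymal fat on chow above all other libraries. On chow the epididymal level was 11.7-fold the mesenteric level (log2 difference 3.57, SE 0.448, adjusted p = 0.000213).

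Cidea, a CIDE protein best known from brown fat, did not share this pattern. It had 33.0, 39.4 and 38.0 normalized counts in mesentery on chow, 44.9, 15.2 and 8.89 in mesentery on HFD, 11.7, 25.2 and 22.5 in epididymal fat on chow, and 25.9, 90.0 and 6.37 in epididymal fat on HFD. On chow the epididymal libraries lay below the mesenteric ones, but the difference of -0.93 on the log2 scale did not pass the test (interval -2.87 to 1.02, adjusted p = 0.586). Library B of epididymal fat on HFD, where Cidea was highest, also had the highest Ucp1 of the 12 libraries, 391 normalized counts, and the highest sum of 8 brown adipocyte markers, 993. The part of those markers in the Cidea value was not tested.

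Among the lipases, Pnpla2 was higher in epididymal fat on both diets, Lipe was lower there on HFD, and Mgll was abundant everywhere. Pnpla2, which removes the first fatty acid from triglyceride, had 1872, 1239 and 2116 normalized counts in mesentery on chow and 2193, 1177 and 1834 in mesentery on HFD. It had 5531, 7344 and 6404 in epididymal fat on chow and 2891, 3976 and 2769 in epididymal fat on HFD. Every epididymal library lay above every mesenteric one. The tissue difference was 1.91 on the log2 scale on chow (SE 0.261, adjusted p = 0.000406) and 0.92 on HFD (SE 0.261, adjusted p = 0.047).

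Lipe, which acts mainly on diacylglycerol, had 960, 928 and 757 normalized counts in mesentery on chow, 1292, 1106 and 871 in mesentery on HFD, 863, 890 and 828 in epididymal fat on chow, and 359, 718 and 531 in epididymal fat on HFD. The chow groups overlapped, and the HFD groups did not, with mesentery higher. The difference between tissues was -0.03 on the log2 scale on chow (interval -0.54 to 0.48) and -1.06 on HFD (SE 0.236, adjusted p = 0.015). Lipe is listed on the strand opposite a long antisense gene, 4732471J01Rik, that spans it in GENCODE M21, and whether the authors' counting used strand is not given in the sources used here.

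Mgll, which cuts the last fatty acid and also degrades the signalling lipid 2-arachidonoylglycerol, had 23628, 32084 and 13499 normalized counts in mesentery on chow, 23214, 22512 and 20139 in mesentery on HFD, 23332, 28357 and 21259 in epididymal fat on chow, and 15950, 30209 and 20172 in epididymal fat on HFD. All 4 groups overlapped. The 95% intervals of its log2 differences were -0.56 to 0.87 between tissues on chow, -0.76 to 0.68 between tissues on HFD, -0.70 to 0.73 by diet in mesentery and -0.90 to 0.54 by diet in epididymal fat.

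Of the synthesis genes, Agpat2 and Dgat2 were higher in epididymal fat on chow, and Dgat1 was not called. Agpat2, an acyltransferase whose loss causes lipodystrophy, had 884, 1021 and 843 normalized counts in mesentery on chow, 827, 643 and 411 in mesentery on HFD, 1887, 1936 and 4173 in epididymal fat on chow, and 614, 1101 and 837 in epididymal fat on HFD. Library C of epididymal fat on chow stood above A and B of that group, and the 3 together lay above the other 9. The tissue difference on chow was 1.44 on the log2 scale (SE 0.327, adjusted p = 0.0111). Agpat2 overlaps the end of Egfl7, an abundant endothelial gene on the other strand, by 64 bases in GENCODE M21 (GRCm38) and lies inside the model Gm20532, so its counts are uncertain if strand was not used. Egfl7 itself ran from 25880 to 46668 in mesentery on chow and from 16238 to 20864 in epididymal fat on chow, the opposite order to Agpat2. By diet in epididymal fat both genes went the same way, Egfl7 having 8300, 15868 and 12267 on HFD, below its 3 chow libraries. Agpat2 over Egfl7 was 0.0904 to 0.257 in epididymal fat on chow and 0.0683 to 0.0740 on HFD. Mgll, Cidea and Plin4 also overlap other gene models there.

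Dgat2, the droplet-associated acyltransferase, had 317, 300 and 1252 normalized counts in mesentery on chow, 1138, 405 and 745 in mesentery on HFD, 3303, 4573 and 5622 in epididymal fat on chow, and 449, 1921 and 1133 in epididymal fat on HFD. Epididymal fat on chow lay above the other 9 libraries, which overlapped one another. The tissue difference on chow was 3.16 on the log2 scale (SE 0.584, adjusted p = 0.00321), with a ratio of means of 7.22. Without library C of mesentery on chow that ratio was 14.6, against 13.9 for Plin4, 13.7 for Cidec and 13.0 for Plin1. Dgat1, the acyltransferase of the endoplasmic reticulum, had 524, 444 and 345 normalized counts in mesentery on chow, 368, 543 and 467 in mesentery on HFD, 758, 565 and 499 in epididymal fat on chow, and 300, 461 and 481 in epididymal fat on HFD. Its tissue difference on chow was 0.47 on the log2 scale (interval -0.07 to 1.01, adjusted p = 0.277).

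Divided by the summed exon length of each gene, so that members can be ranked against each other, Mgll was highest in each group, with means from 4324 to 4789 normalized counts per kilobase. In epididymal fat on chow Cidec followed with 3838 ± 415 (SD, n = 3) and overlapped Mgll. Pnpla2 came next with 2128 ± 300.3 and then Dgat2 with 1459 ± 377 and Agpat2 with 1251 ± 613, the last pair overlapping. Dgat1 (199 ± 44.0) and Plin1 (193 ± 22.1) also overlapped, above Lipe (146 ± 5.23), Plin4 (45.5 ± 8.21) and Cidea (17.8 ± 6.38). In mesentery on chow the order was Mgll (4544 ± 1833), Pnpla2 (577 ± 150), Agpat2 (430 ± 43.9), Cidec (327 ± 82.1), Dgat2 (202 ± 177), Lipe (150 ± 18.5), Dgat1 (143 ± 29.3), Cidea (33.0 ± 3.02), Plin1 (19.6 ± 8.24) and Plin4 (3.39 ± 0.381) per kilobase. Neighbours from Pnpla2 to Dgat1 overlapped there, while Dgat1, Cidea, Plin1 and Plin4 were each apart from the next. On HFD Cidec was second in both tissues, with 1190 ± 893 in mesentery and 1929 ± 1084 in epididymal fat, overlapping Pnpla2 in each.

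**Figure D2:**
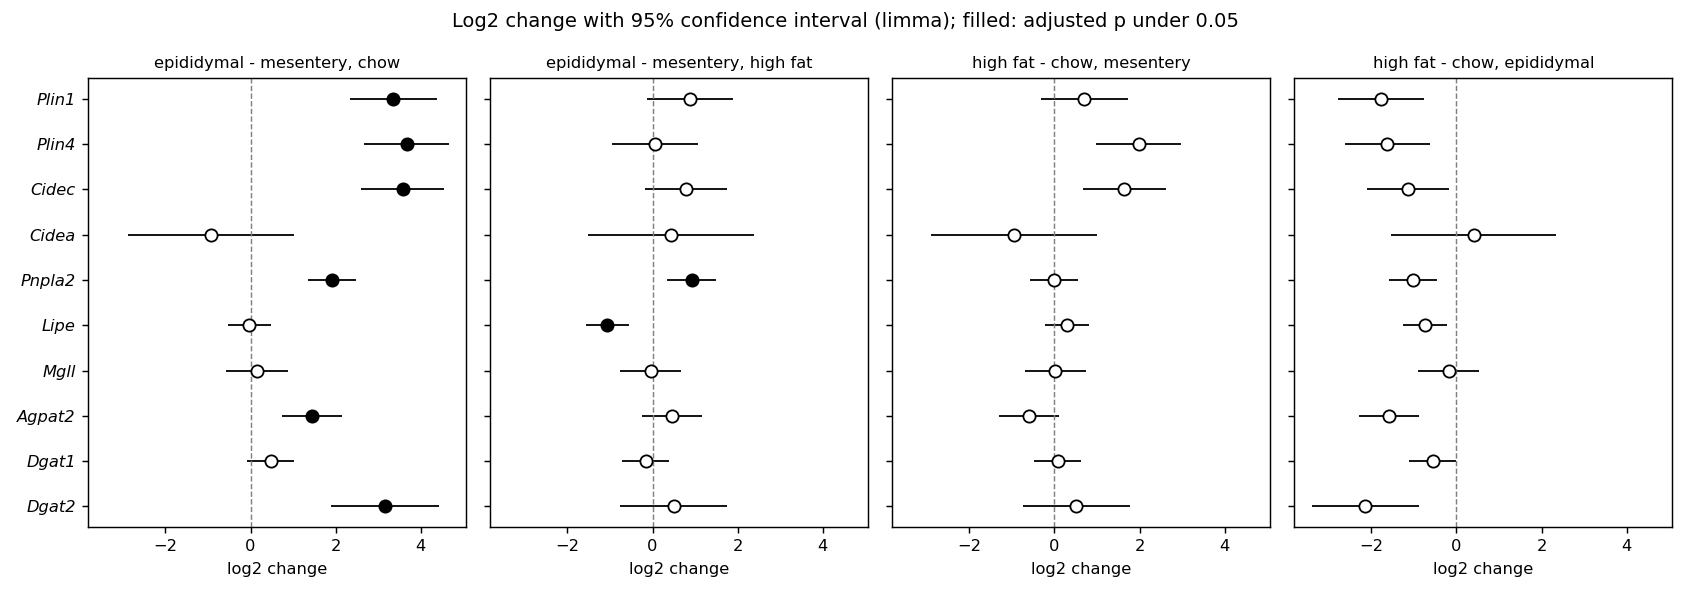
Log2 difference of each member in 4 comparisons (x axis, log2 of normalized count + 1), with 95% confidence intervals from limma over the 12 libraries, and filled points where the adjusted p was under 0.05. Filled points are the 6 members higher in epididymal fat on chow and, on HFD, Pnpla2 (higher) and Lipe (lower); no point is filled for diet.

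On HFD fewer members separated the tissues. Pnpla2 was the 1 member called higher in epididymal fat, beside 4.91% of all genes, and Lipe the 1 member called lower, beside 3.43%. Neither call was firm: Pnpla2 passed in 9 of 22 alternatives (adjusted p from 0.00936 to 0.214) and Lipe in 17 of 22 (0.000946 to 0.0765), and edgeR called neither. Pnpla2 lost the call without any 1 of 9 libraries (all but B and C of mesentery on chow and A of mesentery on HFD). Among the alternatives that ended the call of Lipe was the exclusion of library A or B of mesentery or C of epididymal fat on HFD. The numbers for Cidec were 1.62-fold with an adjusted p of 0.365 and for Plin1 1.63-fold with 0.326, both with overlapping groups. Without library A of mesentery on HFD, Plin1 was called (log2 difference 1.48) and the Cidec ratio was 2.86. In the libraries numbered 50 to 53 alone, which leave out the high library A of mesentery on HFD, 5 members were higher (Cidec with adjusted p = 0.00351, Plin1 with 0.0101, Dgat2 with 0.0245, Pnpla2 with 0.0334 and Agpat2 with 0.04), beside 7.02% of all genes, and Lipe was not called (0.0622). Markers of other cells differed in the same comparison: 11 of 16 macrophage markers (median log2 difference 4.17) and 8 of 8 fibroblast markers (3.38) were called higher in epididymal fat, 1 of 18 adipocyte markers (0.63) was called higher, and 8 of 12 endothelial markers were called lower and 1 higher (-1.20). Their part in the values of Pnpla2 and Lipe was not tested.

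The diet comparison in epididymal fat shares its 3 chow libraries with the tissue comparison on chow. In it 9 of 10 members were lower on HFD, and in 8 of them all 3 HFD libraries lay below all 3 chow libraries, beside 6.57% of all genes tested. The 8 were Plin1, Plin4, Cidec, Pnpla2, Lipe, Agpat2, Dgat1 and Dgat2. None passed limma's test after adjustment (0 of 10, beside 0.549% of all genes in either direction), and the same 8 had an unadjusted p under 0.05 in the lower direction, beside 3.09% of all genes. edgeR called 0 and DESeq2 on the recovered reads called 4 lower (Agpat2, Plin1, Dgat2 and Pnpla2), beside 0.917% of all genes. The median log2 difference was -1.08 over the 10 members and 0.10 over all genes.

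Agpat2 came closest to the threshold, with a mean of 2665 ± 1306 normalized counts on chow and 851 ± 244 on HFD (SD, n = 3), a log2 difference of -1.58 (SE 0.327) and an adjusted p of 0.054. It passed in 6 of 22 alternatives, with adjusted p from 0.00046 to 0.269, among them the exclusion of library B of epididymal fat on HFD or library C of mesentery on HFD. Over the 12 libraries Dgat2 had the steepest difference, -2.15 (interval -3.41 to -0.89, adjusted p = 0.175), from 4500 ± 1161 to 1168 ± 737 normalized counts. Plin1 (-1.78, adjusted p = 0.16) and Plin4 (-1.63, adjusted p = 0.2) followed on the log2 scale. Cidec differed by -1.14 (adjusted p = 0.51), Pnpla2 by -1.01 (0.15), Lipe by -0.74 (0.283) and Dgat1 by -0.56 (0.683). In libraries 50 to 53 the order was another, with Plin1 at -1.64, Plin4 at -1.50, Dgat2 at -1.40 and Agpat2 at -0.99. Without library A of epididymal fat on HFD, Cidec differed by -0.74, Lipe by -0.48 and Dgat1 by -0.34.

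Within the epididymal HFD group, library B had the highest value of 9 of the 10 members, C had the highest of Dgat1, and A had the lowest of 8 genes. The same library had the highest adipocyte marker sum of its group (68700, against 15000 in A and 24934 in C), the highest endothelial sum (92652, against 48278 and 65507) and the lowest macrophage sum (162263, against 259559 and 394163). By diet in this tissue 5 of 18 adipocyte markers were called lower, with a median log2 difference of -1.58, and 3 of 16 macrophage markers were called higher, with a median of 3.42. Endothelial markers had a median of -0.61, with 0 of 12 called by limma or edgeR, 1 called lower by DESeq2, and 5 with an unadjusted p under 0.05, all lower. The part of these marker shifts in the members' differences was not tested.

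In mesentery Plin4 and Cidec were higher on HFD, against their direction in epididymal fat. Plin4 and Cidec were the members for which all 3 HFD libraries lay above all 3 chow libraries (2 of 10, beside 4.47% of all genes), with log2 differences of 1.98 (interval 0.98 to 2.98) for Plin4 and 1.64 (0.68 to 2.61) for Cidec. The ratios of means were 4.49 and 3.64, and without library A on HFD they were 3.09 and 2.06, with a log2 difference of 1.07 for Cidec. Neither passed limma's test after adjustment (adjusted p = 0.357 and 0.475, against 0.0135% of all genes called), and both had an unadjusted p under 0.05 (0.000901 and 0.00277), beside 3.51% of all genes in that direction. edgeR called 0 members and DESeq2 called these 2, beside 0.531% of all genes. Agpat2 was lower in all 3 HFD libraries (1 of 10, beside 5.14%), with a log2 difference of -0.60 (interval -1.30 to 0.11). The other 7 members overlapped, with differences from -0.95 (Cidea) to 0.70 (Plin1). Among adipocyte markers in mesentery 1 of 18, Lep, was called higher, 7 had an unadjusted p under 0.05 in that direction and 2 in the lower one, 6 of the 18 differences were negative, and the sum was highest in library A on HFD (39033), the library with the highest value of 9 of the 10 members in its group. The part of those markers in the Plin4 and Cidec values was not tested.

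The difference between the diet effects of the tissues was negative for 9 of 10 members, meaning lower in epididymal fat relative to mesentery. The largest were Plin4, at -3.61 on the log2 scale (interval -5.02 to -2.19, adjusted p = 0.158), Cidec at -2.78 (interval -4.15 to -1.42, adjusted p = 0.312), Dgat2 at -2.65 and Plin1 at -2.48. None of the 10 passed limma's test, beside 0.0045% of all genes, and 6 had an unadjusted p under 0.05 (these 4, Lipe and Pnpla2), all negative, beside 2.64% of all genes in that direction. edgeR called 0 and DESeq2 called Plin4 and Cidec, beside 0.382% of all genes. Plin4 and Cidec were also the 2 members whose groups did not overlap in either tissue and moved apart in opposite directions, higher with HFD in mesentery and lower in epididymal fat, as did 90 of 22238 genes (0.405%).

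Other genes of the pathway, from lists drawn up with earlier results of these data known, were read by role. Of 16 other droplet genes in the table, 6 were called higher in epididymal fat on chow, beside 7.32% of all genes. The 6 were G0s2, the Pnpla2 inhibitor (log2 difference 4.11), the caveolar gene Cav1 (1.76), the fat storage gene Fitm2 (1.70), Plin2 (1.61), seipin Bscl2 (1.35) and Plin3 (0.77). With edgeR 4 of the 6 were called. Fitm2 passed in 9 of 22 alternatives, losing the call with edgeR, without the filter, with a pseudocount of 0.5 and without any 1 of 10 libraries (all but mesentery chow B and epididymal HFD A), and its difference was 1.04 without library C of mesentery on chow. Plin3 passed in 17, losing the call with edgeR and without library A or C of mesentery or A or B of epididymal fat on chow. Plin2, the perilipin of most cells other than adipocytes, was higher on HFD, where Plin1 was lower. It had 7317, 6426 and 6001 normalized counts in epididymal fat on chow and 28083, 20548 and 35341 on HFD, with no overlap and a log2 difference of 2.06 (SE 0.351, adjusted p = 0.0193). It was the 1 droplet gene of 16 called by diet with limma, and it passed in 16 of 22 alternatives. Plin2 lost the call with edgeR (adjusted p = 0.0772), with rescaled columns and without library A or C of epididymal fat on either diet. DESeq2 also called G0s2 lower in epididymal fat and 1 droplet gene higher in mesentery. In mesentery Plin2 had 1829, 2138 and 2547 on chow and 9975, 4247 and 3110 on HFD (adjusted p = 0.526). By diet in epididymal fat 3 of 16 macrophage markers were called higher, as given above, and their part in the Plin2 difference there was not tested.

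Of the partners that set Pnpla2 activity, G0s2 differed between groups and Abhd5 was not called. G0s2 had 187, 111 and 329 normalized counts in mesentery on chow, 552, 371 and 335 in mesentery on HFD, 3755, 2515 and 3776 in epididymal fat on chow and 696, 1463 and 1094 in epididymal fat on HFD. The 4 groups did not overlap, in the order in which epididymal fat on chow was highest and mesentery on chow lowest, and the diet difference in epididymal fat was -1.67 on the log2 scale (adjusted p = 0.0735). That difference was called with DESeq2, with a mean of at least 50 and without library B or C of mesentery on chow. Abhd5, the Pnpla2 coactivator, stayed between 282 and 629 in all 12 libraries, with a diet difference of 0.06 in epididymal fat and a tissue difference of 0.46 on chow (adjusted p = 0.29). Plin5, which tethers droplets to mitochondria, had at most 56.2 normalized counts and was at 0 in 1 mesenteric library. With all 12 libraries limma called it in no comparison. On chow it had 5.69, 0 and 18.3 in mesentery and 50.9, 43.4 and 40.8 in epididymal fat. That difference was called without library C of mesentery on chow.

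Of 24 genes that control lipolysis, 6 were higher and 2 lower in epididymal fat on chow, beside 7.32% and 5.47% of all genes. The higher ones were the beta-3 adrenergic receptor Adrb3 (log2 difference 5.49), the protein kinase A subunit Prkar2b (3.20), the glycerol channel Aqp7 (3.17), the G protein subunit Gnai1 (3.01), the natriuretic peptide clearance receptor Npr3 (1.87) and Akt2 (1.34), and the lower ones included the phosphodiesterase Pde4d (-3.16). edgeR called 6 higher and 1 lower, and each gene named here passed in all 22 alternatives. Adrb3 had 27.3, 46.6 and 0 normalized counts in mesentery on chow, 84.2, 23.6 and 67.2 in mesentery on HFD, 581, 680 and 306 in epididymal fat on chow and 34.9, 144 and 35.4 in epididymal fat on HFD. Its diet groups in epididymal fat did not overlap, and the log2 difference of -3.11 did not pass limma's test (adjusted p = 0.434). That difference was called with DESeq2, and with limma without library C of mesentery on chow, where Adrb3 was at 0. Pde3b, the phosphodiesterase through which insulin restrains lipolysis, ran from 4.16 to 216 normalized counts with overlapping groups throughout. By diet 0 of 24 were called by limma or edgeR in either tissue, and DESeq2 called 1 lower in epididymal fat and 1 higher in mesentery. An unadjusted p under 0.05 was reached by 2 in epididymal fat, both lower, and in mesentery by 3 higher and 1 lower.

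Besides Plin2, the pathway genes that limma called by diet in epididymal fat were lipases. Of 16 tested, 7 were higher and 1 lower in epididymal fat on chow, beside 7.32% and 5.47% of all genes. Among the higher ones were the secreted lipase Lpl, which endothelium displays but does not chiefly make, Pnpla3 (log2 difference 3.28) and the carboxylesterase Ces1d (2.74). edgeR called 4 higher and 0 lower, and Lpl, Pnpla3 and Ces1d passed in all 22 alternatives. Ces1f and Lipg, also called higher, lost the call with edgeR, with DESeq2 and when most of the libraries were left out singly. Pnpla6, the 1 gene called lower, lost the call with edgeR and without library B of mesentery or A of epididymal fat on chow. Lpl had 855, 739 and 1563 normalized counts in mesentery and 14614, 18368 and 15184 in epididymal fat (adjusted p = 0.000128). By diet in epididymal fat 3 were called higher and 1 lower, beside 0.418% and 0.13% of all genes, and edgeR called 1, Lipa. Lipa, the lysosomal acid lipase, had 834, 1001 and 751 normalized counts on chow and 4920, 2637 and 4540 on HFD (log2 difference 2.18, SE 0.230, adjusted p = 0.0021), and passed in all 22 alternatives. Daglb (2.75, adjusted p = 0.0202) and Abhd12 (1.50, adjusted p = 0.0135), which make and break monoacylglycerols, were also higher, and Ces1d was lower (-3.50, adjusted p = 0.00854). Daglb and Abhd12 each passed in 16 of 22 alternatives. Both lost the call with edgeR (adjusted p = 0.0772 and 0.0522), in libraries 50 to 53 (0.102 and 0.121), and without library C of epididymal fat on chow or A or C on HFD, Daglb also without A on chow and Abhd12 with rescaled columns. Ces1d lost it with edgeR (adjusted p = 0.0552) and without library C on HFD. In mesentery Lipa had 1511, 1125 and 1345 on chow and 1401, 1155 and 1167 on HFD. In epididymal fat the cytosolic lipases Pnpla2 and Lipe were lower in each HFD library than in each chow library, but limma called neither. The groups of Mgll overlapped (log2 difference -0.18). Lysosomal Lipa was called and was higher in each HFD library. The 16 macrophage markers were all positive in this comparison (3 called, 14 with an unadjusted p under 0.05, median 3.42), and their sum on HFD was lowest in library B, as were Lipa, Abhd12 and Daglb. The 18 adipocyte markers were all negative (5 called lower, median -1.58), with the highest sum on HFD in library B, as was Ces1d. The part of these markers in the lipase values was not tested.

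Of 21 other triglyceride synthesis genes tested, 4 were higher and 2 lower in epididymal fat on chow, beside 7.32% and 5.47% of all genes. Gpd1, which supplies the glycerol backbone (log2 difference 2.36), the acyl-CoA synthetase Acsl1 (1.49), the phosphatidate phosphatase Lpin1 (0.77) and Agpat3 (0.74) were higher. Lpin2 (-1.36) and Agpat4 (-0.94) were lower. edgeR called 4 higher and 1 lower. Gpd1, Acsl1 and Lpin2 passed in all 22 alternatives, Agpat3 in 18 (not without library A of mesentery or A or B of epididymal fat on chow, nor with the replicate block, which takes same-lettered libraries as pairs), Lpin1 in 17 (not with rescaled columns, nor without A or B of mesentery or B or C of epididymal fat on chow) and Agpat4 in 17 (not with edgeR, nor without the same 4 libraries). By diet 0 of 21 were called by limma or edgeR in either tissue, and DESeq2 called 1 lower in epididymal fat. An unadjusted p under 0.05 was reached by 4 in epididymal fat, all lower, and in mesentery by 1 higher and 2 lower. Gpam, the first acyltransferase of the path, ran from 45.5 to 164 normalized counts in the 12 libraries, with a tissue difference of 0.68 on chow (adjusted p = 0.338). Lpin1 had 309, 374 and 405 normalized counts in epididymal fat on chow and 228, 238 and 217 on HFD, with no overlap. Its log2 difference of -0.66 was not called by limma (adjusted p = 0.281) but was called with DESeq2. On HFD 1 of 21 genes, Acsl3 (1.17, adjusted p = 0.0462), was higher in epididymal fat than in mesentery, beside 4.91% of all genes. That call held in 10 of 22 alternatives and not with edgeR. In the same comparison 4 of 16 other droplet genes were called higher (Plin2, Plin3, Bscl2 and G0s2). So were 1 of 24 lipolysis control genes (Aqp7) and 4 of 16 other lipases (Lpl, Lipa, Abhd12 and Daglb). Pnpla6 was the 1 lipase called lower, beside 3.43% of all genes. edgeR called 1, 1 and 4 genes of these 3 lists higher and 0 lower.

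**Figure D3:**
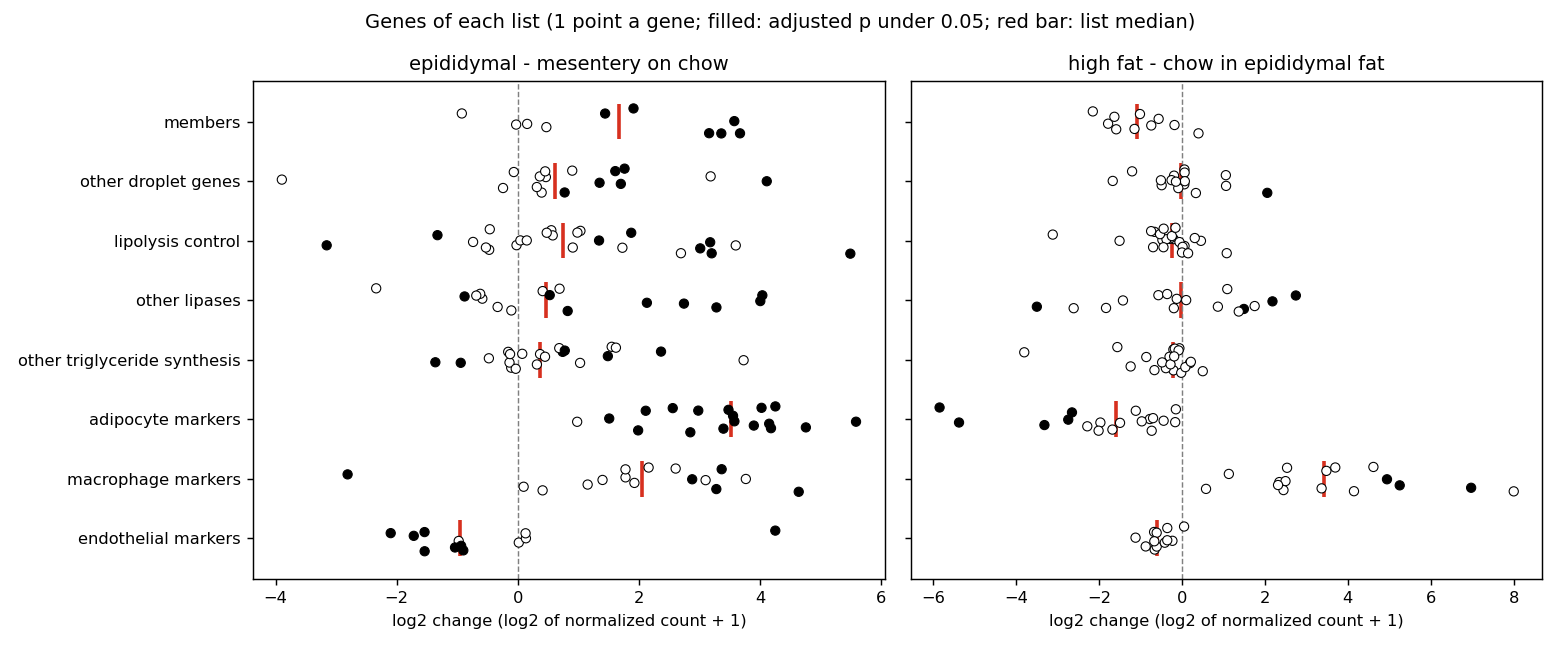
Log2 difference of each tested gene (points) in the member list, 4 further pathway lists and 3 cell type marker lists, between tissues on chow (left) and between diets in epididymal fat (right); filled points had an adjusted p under 0.05 in limma and red bars are list medians. The member median lies at 1.67 on the left and -1.08 on the right, adipocyte markers at 3.51 and -1.58, and macrophage markers at 3.42 on the right.

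Ratios of members within a library do not depend on the library factor. Of 11 ratios computed, chosen after the values were seen and so given without a test, 3 separated all 6 chow from all 6 HFD libraries: Cidec over Plin1, Cidec over Adipoq and Plin4 over Adipoq. Cidec over Plin1 was 7.55, 7.52 and 5.77 in mesentery on chow and 7.31, 8.38 and 8.12 in epididymal fat on chow, against 12.6, 12.9 and 14.1 in mesentery on HFD and 9.78, 13.4 and 14.4 in epididymal fat on HFD. Both genes taken singly were higher in epididymal fat on chow than in any HFD library. Cidec over Adipoq, an adipocyte hormone gene, was 0.965 to 1.24 in mesentery on chow and 1.06 to 1.14 in epididymal fat on chow, against 1.35 to 3.14 and 2.87 to 3.51 on HFD. Plin4 over Adipoq was 0.0261 to 0.0518 in the 6 chow libraries and 0.0553 to 0.109 in the 6 HFD libraries. Plin1 over Adipoq was 0.145 to 0.167 and 0.126 to 0.148 on chow, and 0.0953 to 0.249 and 0.200 to 0.359 on HFD, overlapping in mesentery.

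Pnpla2 over Lipe separated the tissues and not the diets, at 1.06 to 2.79 in the 6 mesenteric libraries and 5.22 to 8.25 in the 6 epididymal ones. Agpat2 over Egfl7 also separated the tissues, at 0.0180 to 0.0326 and 0.0683 to 0.257. Plin2 over Plin1 was 6.82 to 7.67 in epididymal fat on chow and 47.7 to 163 in epididymal fat on HFD, with mesentery between them at 18.8 to 43.2. Dgat2 over Dgat1 was 4.36 to 11.3 in epididymal fat on chow and 1.49 to 4.17 on HFD, and 0.604 to 3.63 in mesentery on both diets. Pnpla2 over its inhibitor G0s2 was 6.42 to 11.2 in mesentery on chow, 3.17 to 5.47 in mesentery on HFD, 1.47 to 2.92 in epididymal fat on chow and 2.53 to 4.16 on HFD, so mesentery on chow held the most Pnpla2 RNA per G0s2 RNA.

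**Figure D4:**
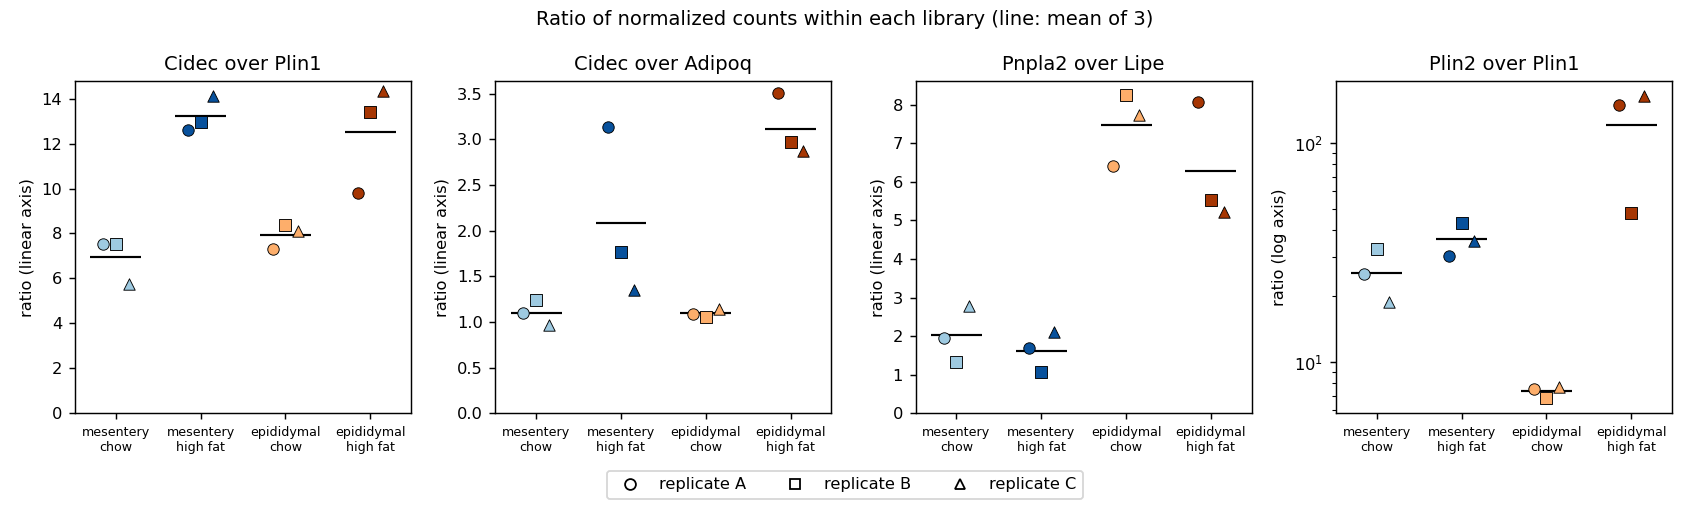
Ratios of normalized counts within each library, in the 4 groups, with the mean of 3 libraries as a line; the Plin2 over Plin1 panel has a log axis. Cidec over Plin1 is 5.77 to 8.38 in the 6 chow libraries and 9.78 to 14.4 in the 6 HFD libraries, and Pnpla2 over Lipe is higher in all 6 epididymal libraries than in all 6 mesenteric ones.

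Across the 12 libraries, 6 members followed their common mean closely and 4 did not. The Pearson correlation of log2 values with the mean of the members, each centred on its own mean, was 0.972 for Plin1, 0.930 for Cidec, 0.926 for Dgat2, 0.921 for Plin4, 0.900 for Pnpla2 and 0.804 for Agpat2. It was 0.438 for Dgat1, 0.335 for Mgll and 0.128 for both Cidea and Lipe. The points share 4 groups, and each member is part of the mean it was set against, so the values describe and do not test. Outside the 10 members, the 5 genes closest to that mean over the 12 libraries were Chpt1 (r = 0.981), a cholinephosphotransferase, Adhfe1 (0.976), Car3 (0.972), the carbonic anhydrase abundant in adipocytes, Gstz1 (0.969) and Coro6 (0.969). Chpt1 had 857 to 1357 normalized counts in mesentery on chow, 1117 to 1876 in mesentery on HFD, 4351 to 5354 in epididymal fat on chow and 1151 to 3394 in epididymal fat on HFD.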

How the data were processed

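RNA was sequenced from 12 libraries, 4 groups of 3. The deposited table holds normalized counts, a signal per gene, as the authors deposited it. The submitters' processing notes name STAR 2.7.9a, featureCounts, Subread, DESeq2 1.34.0 and genome mm39; strand use is not given in the sources used here. Every value was a whole multiple of 1 read within a tolerance of 1e-06 (100% of values), and the divisors equalled median-of-ratios size factors, so reads were recovered.

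Differences were tested with limma 3.58.1 under R 4.3.3, using a mean-variance trend, on log2(normalized count + 1), over 22238 genes with a mean of at least 10, with all 4 groups in 1 fit, Benjamini-Hochberg adjustment within each comparison and a threshold of 0.05. Tests are two-sided. Fold values on this scale understate changes of low genes. Groups came from sample titles. The 22 alternatives were other pseudocounts, filters and scaling, edgeR 4.0.16 and DESeq2 1.42.0 on recovered reads, number range, replicate block, and each library left out. The limma fit was checked on simulated data. Exon lengths came from GENCODE M21 and promoters from RefSeq (GRCm38.p6), joined by gene ID or symbol; no coordinate was moved between builds. Motifs within a promoter window were searched on both strands.

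The members and gene lists were chosen with earlier results of these data known. Named are all members, up to 6 called genes per list and comparison by size, 8 textbook partners (Abhd5, G0s2, Plin2, Plin5, Gpam, Lpin1, Adrb3, Pde3b), the 3 highest markers of a cell type, and the 5 genes most like the members; other markers and genes named were chosen after their values were seen. A called gene of the lipolysis control list is not reported here by name. Intervals and the 3-read floor cover no more than the spread and counting error of these libraries.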

Additional observations from a re-analysis of the deposited data

How the results depend on the processing

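Of 2211 recomputed values of 101 named results, 1996 kept their direction and side of the threshold, 150 lost a call, 26 gained one and 39 changed sign, all 39 without a call. The 6 tissue calls on chow held in every alternative. Genes called by limma were 3 by diet in mesentery, 122 by diet in epididymal fat, 2843 by tissue on chow, 1854 by tissue on HFD and 1 for the difference of diet effects. With edgeR they were 1 by diet in mesentery, 29 by diet in epididymal fat and 1021 by tissue on HFD, with DESeq2 154, 546 and 2931 and 133 for the difference, with a mean of at least 50 they were 7 in mesentery and 3 for the difference, and in libraries 50 to 53 they were 20, 31, 4349 and 11 (mesentery, epididymal fat, tissue on chow, difference). Members called by diet in epididymal fat were 0, but 1 with a pseudocount of 5, a mean of at least 50 or number range as covariate, and 4 with DESeq2, which called 2 by diet in mesentery and 2 for the difference. Members called by tissue on HFD were 2, but 1 without a filter or with rescaled columns, 0 with edgeR and 5 in libraries 50 to 53.

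Leaving out each library gave 1 to 37 genes by diet in mesentery (37 without chow C, 6 without HFD B or epididymal chow C, 5 without chow A, 1 without HFD C), 23 to 176 by diet in epididymal fat (45 without chow A, 51 without chow C, 43 without HFD A, 23 without HFD C), 1516 to 3278 by tissue on chow (1659 without mesenteric A, 1523 without epididymal A, 1516 without epididymal B), 728 to 2508 by tissue on HFD (1194 without mesenteric A, 815 without mesenteric B, 728 without epididymal C), and 1 to 20 for the difference (20 without mesenteric chow C, 10 without epididymal HFD B, 4 without mesenteric HFD C, 2 without epididymal chow A). Members called ranged from 0 to 1 by diet in epididymal fat and from 0 to 2 by tissue on HFD, with 0 without mesenteric B or epididymal C.

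Each number belongs to 1 mesenteric and 1 epididymal library of the same diet, and the main test treats these as unpaired. With group means removed, same-numbered libraries correlated at 0.027 to 0.583 on chow and -0.149 to 0.146 on HFD. Mesenteric and epididymal chow libraries of unlike number ran from -0.676 to 0.521. With 3 pairs for each diet, whether the numbers pair the libraries cannot be told. With a replicate block by number, 2 genes were called for the difference, 1 member (Lipe) by tissue on HFD and 6 by tissue on chow. For diet the block used the letters, which join unlike numbers, so it does not check pairing by number. It called 0 members by diet.

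Columns rescaled to the same total moved the median log2 value of all genes from 0.00 to 0.13 by diet in mesentery, from 0.06 to -0.12 by tissue on HFD, from 0.10 to -0.04 by diet in epididymal fat and from 0.11 to -0.16 for the difference, and the share of calls that were higher from 57.2% to 67.3% by tissue on chow, from 58.9% to 35.3% by tissue on HFD and from 76.2% to 63.8% by diet in epididymal fat. Rescaling reversed Abhd5 (diet in epididymal fat, -0.079), Lipe (tissue on chow, 0.062), Plin4 (tissue on HFD, -0.12) and Pnpla2 (diet in mesentery, 0.12, and 0.021 with edgeR). Mgll reversed by diet in mesentery (-0.062 with edgeR, -0.074 with DESeq2, -0.37 in libraries 50 to 53), by tissue on HFD (0.047, 0.014 and 0.21), by tissue on chow (-0.10 in libraries 50 to 53) and in the difference (0.31 in libraries 50 to 53). Across the libraries left out, values on both sides of 0 ran, by diet in epididymal fat, from -0.014 to 0.15 for Abhd5, from -0.50 to 1.32 for Cidea and from -0.43 to 0.032 for Mgll; by diet in mesentery, from -0.089 to 0.22 for Dgat1, from -0.33 to 0.30 for Mgll and from -0.25 to 0.24 for Pnpla2; by tissue on HFD, from -0.47 to 1.34 for Cidea, from -0.31 to 0.054 for Dgat1, from -0.29 to 0.17 for Mgll and from -0.35 to 0.48 for Plin4; by tissue on chow, from -0.13 to 0.036 for Lipe and from -0.19 to 0.43 for Mgll; and in the difference, from -0.47 to 0.15 for Mgll. The cause of these shifts was not tested. With 3 pooled libraries a group, intervals are wide, and low members (Cidea, and Plin4 in mesentery) rest on few reads.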

Other observations

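Markers of cell types not described above also differed between the libraries. Of 7 tested mesothelial markers, genes of the lining of the body cavity, 5 were called higher in epididymal than in mesenteric chow libraries and 2 on HFD, with 0 called by diet. Their sum was 211 to 350 in mesentery on chow, 266 to 290 in mesentery on HFD, 1277 to 1931 in epididymal fat on chow and 440 to 880 in epididymal fat on HFD. Of 8 lymphocyte markers 0 were called in any of the 5 comparisons by limma, and their sum reached 6505 in library C of mesentery on HFD, against 229 and 303 in the other libraries of that group. Of 7 tested brown adipocyte markers 0 were called by limma, and 4 were higher in epididymal fat on HFD than in mesentery with an unadjusted p under 0.05, of which DESeq2 called 3. Fibroblast markers were called higher in epididymal fat for 8 of 8 genes on HFD, and 2 of 8 were called higher by diet in epididymal fat. Of 10 smooth muscle and pericyte markers, 4 were called higher in epididymal fat on HFD and 1 lower by diet in epididymal fat.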
